A study of Xenopus laevis with 28 samples.

Results

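Enzymes that make and remove glyoxylate, together with enzymes that start the breakdown of amino acids, were followed across 14 organs of the frog Xenopus laevis. The members were taken by gene symbol: agxt, agxt2, grhpr, hao1, hoga1, aadat and sdsl, with every copy kept and the tandem copies of grhpr held apart. Of 45831 gene models in the deposited table, 10 carried these symbols. They cover 6 of the 7 symbols, since no row carried the symbol agxt2, which was not analysed here. The symbols were chosen with the organ levels of these libraries known, above all the height of agxt and aadat in kidney and of a grhpr copy in ovary. Organ levels of the members are therefore given as a description, with no test.

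The libraries came from untreated frogs of the J strain, whose ages are not given in the labels. For each of 13 organs (brain, eye, heart, intestine, kidney, liver, lung, muscle, ovary, pancreas, skin, spleen and stomach) there was 1 library from each of 2 females, called Taira and Ueno after their datasets. Testis came from 2 male siblings of the females, 1 per dataset, which makes 28 libraries in all. Poly-A RNA of whole minced organs was sequenced without strand information, so reads from an overlapping antisense gene cannot be told apart, and n is 2 animals per organ.

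Glyoxylate is a small, reactive product of glycolate and hydroxyproline breakdown, and what is not removed can be oxidised to oxalate, which forms insoluble calcium salts. In mammals much of its removal takes place in peroxisomes and mitochondria of liver and kidney cells, and people who lack AGXT, GRHPR or HOGA1 develop primary hyperoxaluria. Xenopus laevis is an allotetraploid, so many of its genes exist as a pair of homeologs, one on a long (L) and one on a short (S) chromosome.

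Values are TPM, in which a gene model's reads are divided by its length and then scaled to a fixed library total, so levels of different genes can be compared, but a level can fall because others rise. Between 24533 and 34388 models were above 0 in a library, and the 10 most abundant models took 1.52 to 62.8% of it, most in pancreas. Read depth cannot be recovered from TPM, and no counting error is given. The labels of the organs were checked against marker lists. A model was counted only where both libraries of its organ lay above every library of the other organs. Of 18 kidney marker models 13 met this in kidney, of 25 liver marker models 14 in liver, and of 27 oocyte marker models 20 in ovary. At 0 in their own organ were 1 kidney marker model and 2 oocyte marker models.

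The 10 copies fell into distinct patterns. The copies agxt.L, hoga1.L, aadat.L and aadat.S were highest in kidney, hao1.L and agxt.S in liver, and grhpr.2.L in ovary. By contrast the highest organ of grhpr.1.L and of sdsl.S overlapped with the next, and sdsl.L was close to absent. The copies grhpr.1.L, sdsl.S and aadat.S were present in all 28 libraries. In bulk organs, fewer cells of a type and less RNA per cell cannot be told apart. Of the 10 copies, 9 passed the minimum of 1 TPM in at least 2 libraries, and sdsl.L did not.

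**Figure D1:**
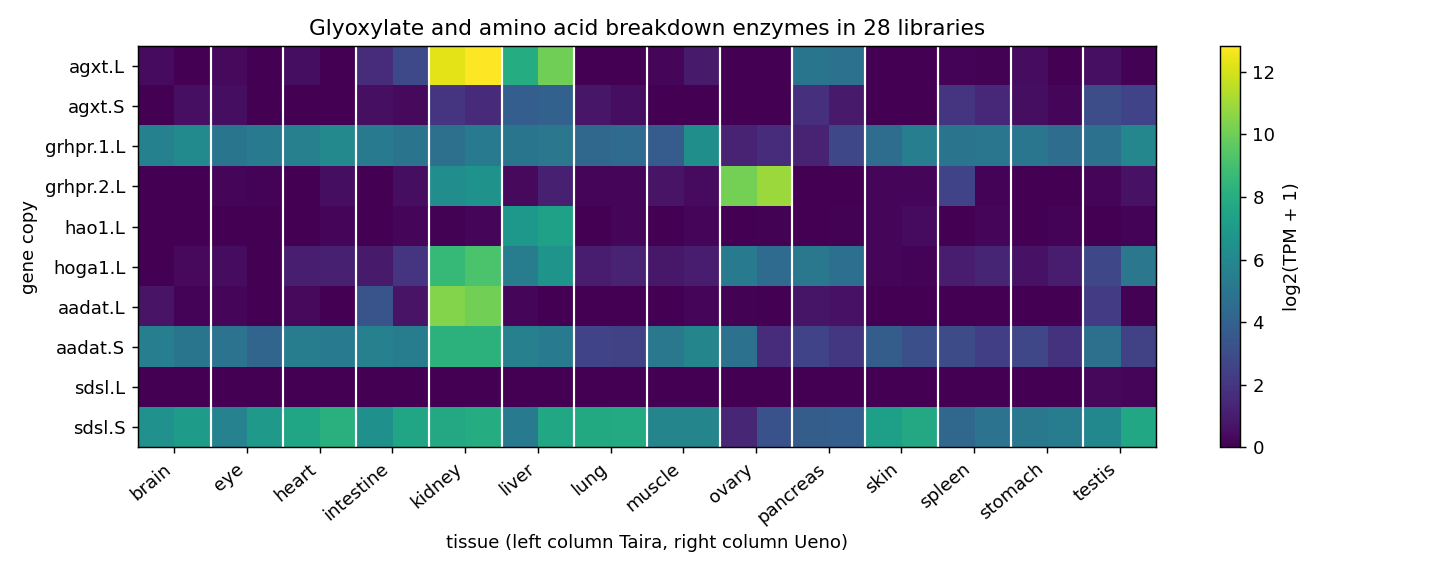
Level of the 10 member copies (rows) in the 28 libraries (columns, grouped by organ, Taira then Ueno), coloured by log2(TPM + 1). Kidney is the brightest organ for agxt.L, hoga1.L and both aadat copies, liver for hao1.L and agxt.S, and ovary for grhpr.2.L.

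Among the enzymes that produce glyoxylate, hao1 is glycolate oxidase, the peroxisomal enzyme that turns glycolate into glyoxylate. The copy hao1.L (Xelaev18026066m) stood at 113 TPM in Taira liver and 163 TPM in Ueno liver (138 ± 35.5, SD, n = 2). In the other 26 libraries it never passed 0.30 TPM, a value of Ueno skin, and it was listed at 0 in 13 of them. Kidney was among the organs without it, with 0.06 and 0.14 TPM. No row carried an S copy of hao1.

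The mitochondrial aldolase hoga1 carries out the last step of hydroxyproline breakdown and releases glyoxylate and pyruvate. Its copy hoga1.L (Xelaev18034692m) reached 386 and 580.5 TPM in the Taira and Ueno kidneys (483 ± 138) and 40.2 and 97.4 TPM in the livers (68.8 ± 40.4). Kidney lay above liver in each frog, by 9.59-fold in Taira and 5.96-fold in Ueno, and the organs did not overlap. Ovary followed with 37.6 and 21.6 TPM and pancreas with 34.1 and 24.4 TPM, and these organs overlapped. Testis ranged from 5.99 to 32.5 TPM, and intestine was at 0.89 and 2.86 TPM. In each of the other 8 organs hoga1.L was at most 1.51 TPM. After scaling by the median of ratios, pancreas rather than liver came after kidney, and kidney and liver overlapped.

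The enzyme that clears glyoxylate by transamination is agxt, alanine-glyoxylate aminotransferase, which gives glycine. Its L copy (Xelaev18027830m) was the most abundant member in any library, at 4958 TPM in Taira kidney and 7260.5 TPM in Ueno kidney (6109 ± 1628). By level it ranked 9 and 6 among all models of these libraries. Liver had 249 TPM in Taira and 1069 TPM in Ueno (659 ± 580.0), pancreas 30.9 and 27.6 TPM, and intestine 2.04 and 6.14 TPM. These 4 organs followed each other without overlap. Everywhere else agxt.L was at most 0.90 TPM, and it was listed at 0 in 10 libraries, among them both libraries of lung, ovary and skin. The kidney mean was 9.27-fold the liver mean, 19.9-fold in Taira and 6.79-fold in Ueno, and 2.58-fold after scaling by the median of ratios.

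Far lower was the S copy of agxt (Xelaev18029890m), and its order differed. Liver came first with 13.34 and 15.02 TPM, then testis with 7.15 and 4.94 TPM, with no overlap between them; after either scaling (median of ratios or quantile normalization) pancreas came after liver. Kidney, with 2.75 and 1.90 TPM, overlapped with spleen, with 2.79 and 1.75 TPM. In liver agxt.S was 6.10-fold its kidney level, the opposite order to the L copy. In kidney the mean of agxt.L was 2628-fold that of agxt.S, in liver 46.5-fold and in pancreas 18.3-fold, whereas in testis agxt.S was 24.2-fold agxt.L and in spleen 26.7-fold. The agxt.L means under the testis and spleen folds were 0.25 and 0.085 TPM. Both libraries had more L in 5 organs and more S in 4, and 5 were mixed or equal. These counts take in muscle (more L), lung and stomach (more S), where both copies were below 1 TPM and their order means little. The pair was described without a test, because the L copy had been singled out for its level.

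**Figure D2:**
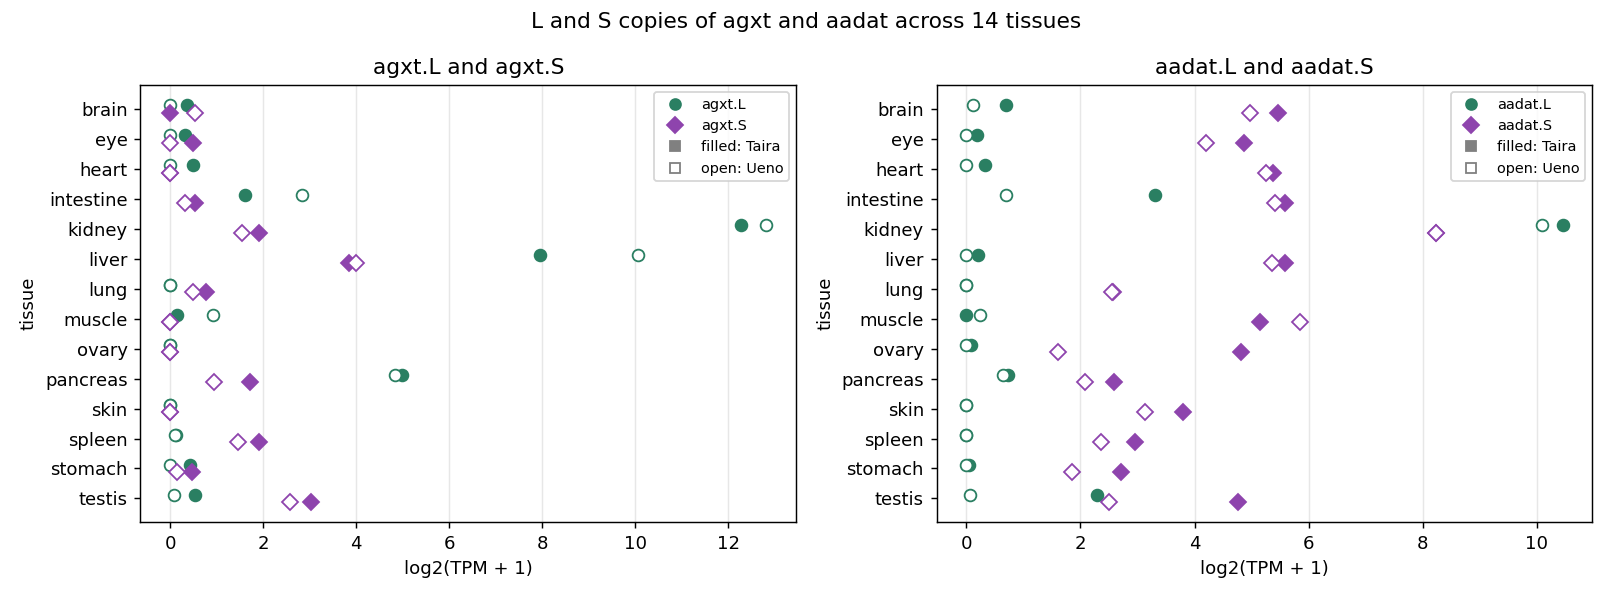
log2(TPM + 1) of the L (circles) and S (diamonds) copies of agxt and aadat by organ, filled for Taira and open for Ueno. The mean log2 ratio of L to S runs from 10.83 in kidney to -2.49 in testis for agxt and from 2.04 in kidney to -5.37 in muscle for aadat, and in kidney alone the aadat circles lie to the right of the diamonds.

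The other way to clear glyoxylate is reduction to glycolate by grhpr, which also reduces hydroxypyruvate. Its copies grhpr.1.L (Xelaev18006533m) and grhpr.2.L (Xelaev18006532m) are direct neighbours in RefSeq's annotation of the Xenopus laevis v10.1 assembly, with 0 genes between them. Tandem copies can share reads, so how the counting divided reads between them is uncertain.

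The copy grhpr.1.L was broad. Brain held 49.4 and 69.8 TPM (59.6 ± 14.4) and heart 47.2 and 64.9 TPM (56.1 ± 12.6), and going down from brain each of the first 10 organs overlapped with the next. Muscle spread most among them, with 12.43 TPM in Taira and 82.6 TPM in Ueno. Kidney, with 26.02 and 37.42 TPM, and liver, with 30.5 and 32.5 TPM, overlapped. Pancreas, with 1.40 and 5.79 TPM, and ovary, with 1.41 and 2.04 TPM, were the lowest. Brain was highest in TPM as deposited, muscle after scaling by the median of ratios and heart after quantile normalization, while ovary was lowest under all of these.

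The neighbour grhpr.2.L had a narrower profile, highest in ovary, where grhpr.1.L was lowest. Ovary stood at 1151 TPM in Taira and 1917 TPM in Ueno (1534 ± 542), the 16th and 33rd highest models of those libraries. Kidney had 76.9 and 96.7 TPM (86.8 ± 14.1), Taira spleen 5.02 TPM, and no other library more than 1.19 TPM. Ovary was 17.7-fold kidney, without overlap. Within the sum of both copies grhpr.1.L made up 0.122 and 0.106% in the ovaries and 25.3 and 27.9% in the kidneys. Its share was 85.4% in Taira spleen and at least 95.5% in the other 23 libraries.

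Oocyte markers were set beside the kidney level of grhpr.2.L. The markers are genes such as zp4 and gdf9, of the egg coat and of oocyte signalling, and their 27 models summed to 7701 and 10079 TPM in ovary, 461 and 516 TPM in kidney, and 6.06 and 14.8 TPM in liver. Elsewhere the sum ran from 1.17 to 1915 TPM, the highest in Taira testis. Of the 21 marker models with at least 10 TPM in both ovaries, 19 were higher in both kidney libraries than in any library of the other 12 organs. Their kidney level was a median of 5.60% of the same frog's ovary level in Taira (3.61 to 8.83%) and 5.46% in Ueno (2.60 to 55.0%). The copy grhpr.2.L, with 6.68 and 5.05%, lay inside both ranges, but the Ueno range is too wide to place it closely. The upper end of that range was ddx25.L, at 337 TPM in Taira ovary and 10.6 TPM in Ueno ovary. Next in Ueno were velo1.L (28.8%), gdf9.L (26.5%) and gdf9.S (22.0%), also lower in Ueno ovary than in Taira ovary. Their levels in Taira and Ueno ovary were 466 and 28.2 TPM for velo1.L, 131 and 13.5 TPM for gdf9.L, and 93.4 and 10.4 TPM for gdf9.S. The part that oocyte RNA has in the kidney level of grhpr.2.L was not tested.

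**Figure D3:**
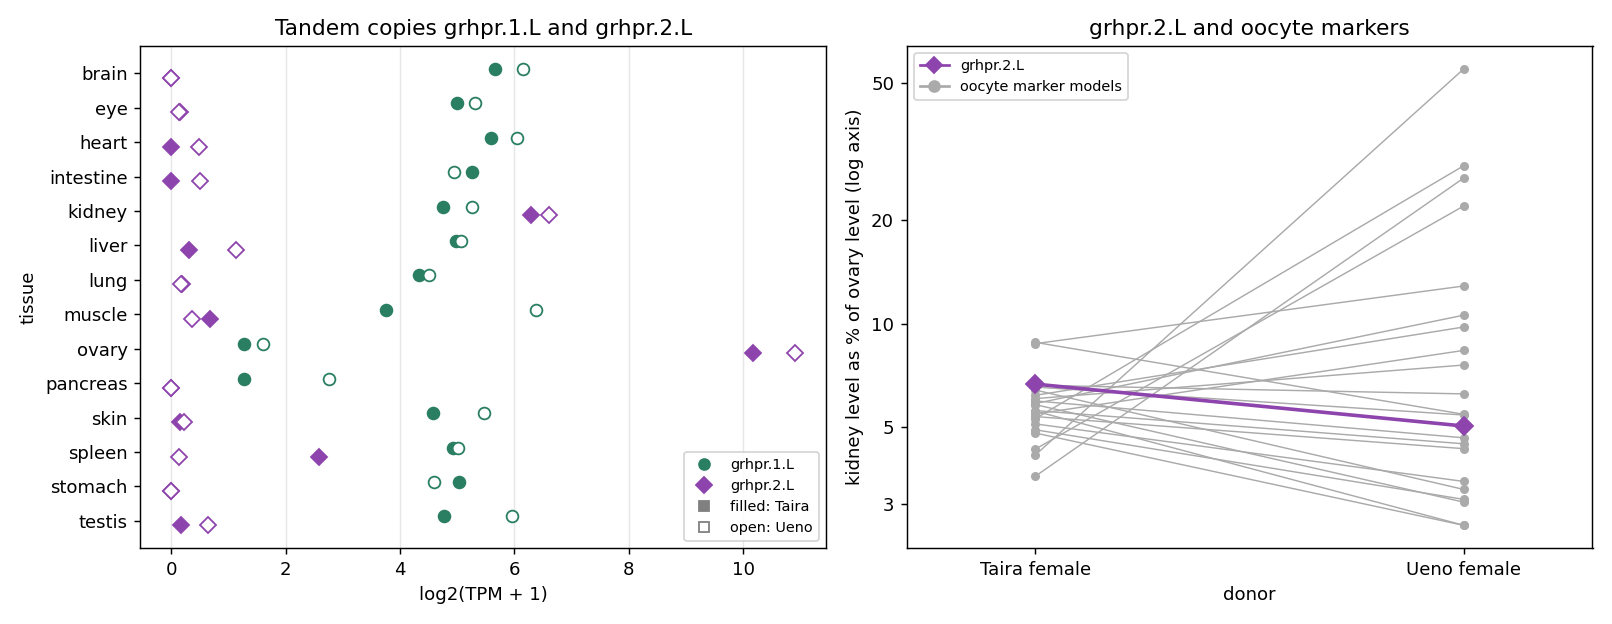
Left, log2(TPM + 1) of the tandem copies grhpr.1.L (circles) and grhpr.2.L (diamonds) by organ, filled for Taira and open for Ueno. Right, on a log axis, the kidney level as a percentage of the ovary level of the same female for grhpr.2.L (purple, 6.68 and 5.05%) and 21 oocyte marker models (grey, medians 5.60 and 5.46%).

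Of the amino acid enzymes, aadat transfers the amino group of aminoadipate, from lysine, and of kynurenine, from tryptophan. Its L copy (Xelaev18005414m) reached 1398 TPM in Taira kidney and 1089 TPM in Ueno kidney (1244 ± 219). Next came intestine with 8.95 and 0.61 TPM and testis with 3.88 and 0.05 TPM, and all other libraries held at most 0.66 TPM. In 12 libraries the copy was listed at 0. Both kidney values thus stood far above those of every other library.

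The S copy (Xelaev18009163m) was also highest in kidney, with 299 and 298 TPM (299 ± 0.672), and it was present in all 28 libraries. Muscle followed with 34.3 and 56.4 TPM, and liver (47.18 and 39.97 TPM), intestine (46.8 and 41.5 TPM), heart (40.4 and 37.2 TPM) and brain (43.1 and 30.3 TPM) overlapped with muscle. After either scaling liver rather than muscle came after kidney. At the low end were lung, stomach, pancreas and spleen, none above 6.74 TPM. Ovary, with 27.0 and 2.06 TPM, and testis, with 26.1 and 4.68 TPM, differed widely between datasets. In kidney the L copy was 4.16-fold the S copy, and in both libraries of each of the other 13 organs the S copy was higher. This pair too was described without a test.

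Serine is turned into pyruvate and ammonia by serine dehydratase, to which sdsl, serine dehydratase-like, is related. The S copy (Xelaev18010383m) was at 183 and 278 TPM in heart (230.2 ± 67.3), 209.5 and 249 TPM in kidney (229 ± 27.9), 221 and 228 TPM in lung and 152 and 215 TPM in skin. Heart, kidney and lung overlapped, and skin, which lay below lung, overlapped with heart and kidney. Liver had 36.5 TPM in Taira and 206 TPM in Ueno, and testis 61.9 and 207 TPM. Ovary was lowest, with 1.59 and 8.34 TPM, below pancreas with 12.96 and 13.19 TPM. Heart was highest in TPM as deposited, liver after scaling by the median of ratios, and lung after quantile normalization.

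The L copy of sdsl (Xelaev18007447m) was listed at 0 in 26 libraries and at 0.19 and 0.13 TPM in testis, and RefSeq's v10.1 annotation, which holds the other 9 copies, does not list it. The S copy was higher in 28 of 28 libraries. With L at or near 0, a ratio of the copies follows the S level and the added constant (mean log2 ratio -6.14 with 1 TPM added, -9.33 with 0.1 TPM and -3.98 with 5 TPM), so no test of the pair is given. Homeologs are similar in sequence, so the split of reads between them is uncertain.

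Kidney and liver, the organs highest for most members, were set side by side. Kidney was above liver, with no overlap, for agxt.L, hoga1.L, both aadat copies, grhpr.2.L and sdsl.S. Liver was above kidney, with no overlap, for hao1.L and agxt.S. Over all models, 27.5% were called lower in liver than in kidney and 1.89% higher. The median log2 difference over all models (liver minus kidney) was -0.997, so most models shared the direction toward kidney. No share of all models without overlap is given. The fold of kidney over liver was 6.85 for aadat.S. For sdsl.S it was 1.89 over the means, but 5.75 in Taira and 1.21 in Ueno. Scaling by the median of ratios left all these orders in place for the means except that of sdsl.S, which became 1.95-fold higher in liver. It put grhpr.1.L 3.20-fold higher in liver. For hoga1.L kidney and liver then overlapped, with scaled values of 198 and 391 in kidney and 62.7 and 226 in liver (2.03-fold over the means). Quantile normalization kept sdsl.S higher in kidney, by 0.51 on the log2 scale.

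**Figure D4:**
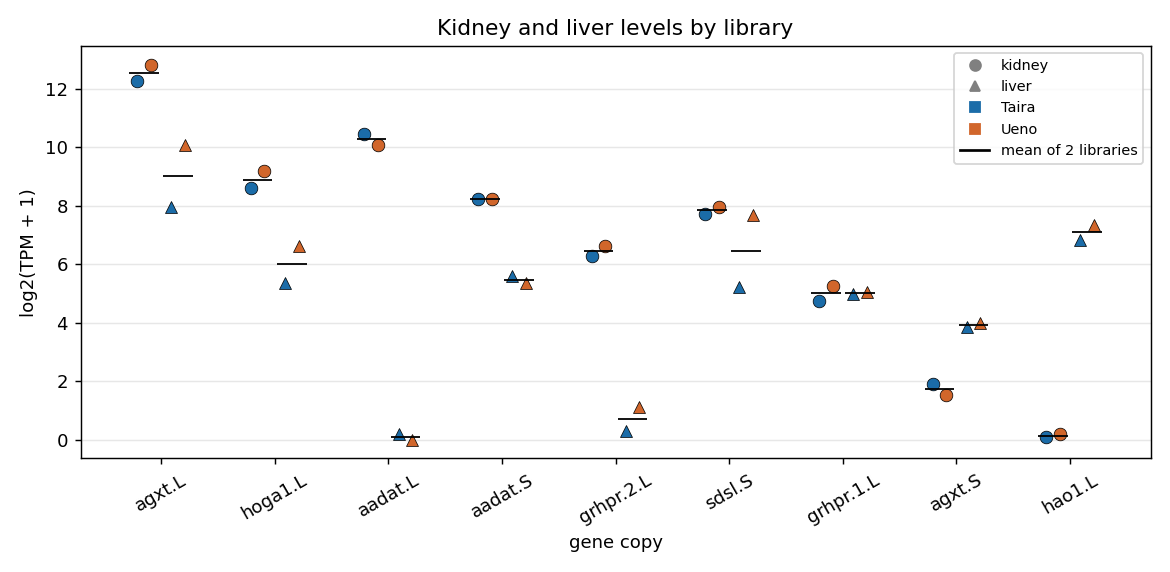
log2(TPM + 1) of the member copies in kidney and liver, 1 point per library with the Taira and Ueno frogs in different colours and a line at each mean of the log2 values. The points of hao1.L and agxt.S lie higher in liver, those of grhpr.1.L overlap, and the other copies above 0 lie higher in kidney.

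The frogs were compared over the 26 libraries of the 13 female organs, a measure that did not enter the choice of the members. Dataset, date and clutch cannot be told apart from the animal. Organs of the same female served as the replicates, and no further animals were available. The SE and p-values therefore describe how steady a gap was over the organs of these animals. They cannot show a difference between frogs in general. Ueno minus Taira differences correlated between organs over the models (median r 0.425 over 78 pairs). This r includes any gap that the organs share, which the fit itself estimates. It therefore cannot show whether the organs are independent beyond that gap, which was not tested. If organs of the same animal are not independent, the p-values are too small. None of the 9 copies tested was called by limma (an adjusted p under 0.05 together with a difference of 1 or more on the log2 scale), where 10.6% of all 33317 models were. At an unadjusted p under 0.05 there were 4 of 9, and 49.3% of all models. The median difference (Ueno minus Taira) was 0.16 over the 9 copies and -0.22 over all models.

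For sdsl.S the mean over organs was 88.5 TPM in Taira and 135 TPM in Ueno, and Ueno was higher in 12 of 13 organs. The log2 difference over organs of these same animals was 0.72 (SE 0.19, limma adjusted p = 0.00849), under the size needed for a call. After scaling by the median of ratios it was 1.13 (adjusted p = 0.00238), a call. For hao1.L the difference was 0.16 (SE 0.058, limma adjusted p = 0.0421, and up to 0.069 with 1 library left out), on values that outside liver never passed 0.30 TPM. The copy grhpr.1.L was higher in Ueno in 11 of 13 organs (difference 0.52, adjusted p = 0.0602) and aadat.S lower in 12 of 13 (difference -0.53, adjusted p = 0.0809), and neither passed the threshold.

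In liver some members differed between the frogs and others hardly did. Ueno liver held 4.29-fold the agxt.L, 5.64-fold the sdsl.S and 2.42-fold the hoga1.L of Taira liver, but 1.13-fold the agxt.S and 0.847-fold the aadat.S. The 10 most abundant models took 42.3% of the Taira liver library and 23.9% of the Ueno one, and the part of this in the gaps was not tested. After scaling by the median of ratios the folds were 6.41 for agxt.L, 8.41 for sdsl.S and 3.61 for hoga1.L. These are values of 1 library per frog, with no test.

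**Figure D5:**
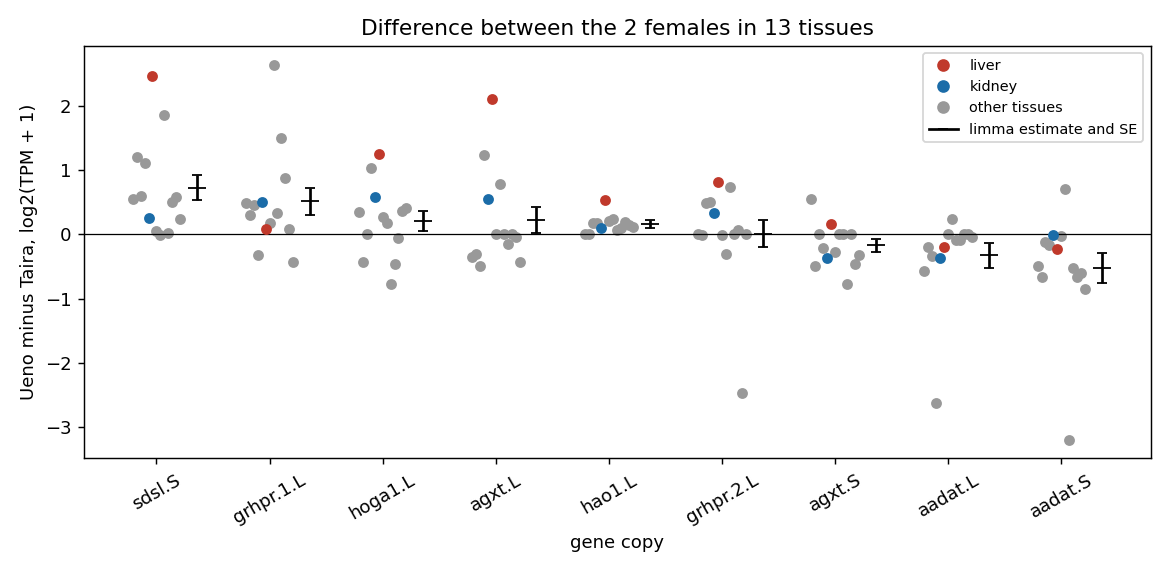
Difference between the frogs (Ueno minus Taira, in log2(TPM + 1)) of the member copies in each of the 13 female organs, 1 point per organ with liver and kidney coloured; the bars are the limma estimate and its SE. Most sdsl.S points lie above 0 (12 of 13), and most aadat.S points below 0 (12 of 13).

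Other genes of the same pathways were tested from 9 lists of 161 symbols, without the members. The lists too were chosen with earlier results of these data known, so their counts are no independent support for the members' pattern. A model was found for 111 symbols, and 158 of their 162 models passed the minimum. Against the mean of the other 13 organs, 83 of the 158 were higher in kidney and 1 was lower (2 with the frog as a block), where 13.9% of all models were called higher and 1.08% lower. The median log2 difference was 1.44 over the lists and 0.40 over all models. Higher calls were 98.8% of the pathway calls, against 92.8% over all models. Scaling by the median of ratios left 53 higher and 2 lower, with a median over all models of -0.14. The shares were then 96.4% against 80.5%. After quantile normalization they were 94% (63 higher, 4 lower) against 70.3%. Of the liver marker models, 8 of 23 tested were also called higher in kidney and 1 lower, with a median difference of -0.44. All 25 liver marker models summed to 3234 and 2144 TPM in kidney and to 31192 and 10185 TPM in liver. In the other organs that sum reached up to 7710 TPM, in Ueno intestine. The part of these markers in the count of pathway models was not tested. Of the oocyte marker models 20 of 24 were called higher, and the count of pathway models was 71 higher and 1 lower with models highest in ovary left out. The share over all models was not computed with those models left out.

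Beside the glyoxylate members, 8 of 11 models of the glyoxylate and hydroxyproline list were higher in kidney and none lower, with a median difference of 4.30. The anion exchanger slc26a1.L, which carries sulfate and oxalate, was at 485 and 67.9 TPM in kidney against a mean of 5.93 TPM in the other organs (log2 difference 7.02, SE 0.64, limma adjusted p = 1.73e-07). The D-amino acid oxidase dao.L, which in mammals can also make glyoxylate from glycine, was at 783 and 461 TPM (difference 5.52, SE 0.62, adjusted p = 2.26e-06). In liver dao.L was at 110.5 and 13.5 TPM, and slc26a1.L was listed at 0 in both libraries. For each of these genes some library outside kidney and liver was at or above the lower kidney value.

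In the glycine, serine and threonine list 9 of 14 models were higher in kidney. The serine hydroxymethyltransferase shmt1.L, which interconverts serine and glycine, was at 503 and 764 TPM (difference 4.50, adjusted p = 2.55e-07 by limma). The serine synthesis enzyme phgdh.S was at 105 and 92.1 TPM (difference 3.99, adjusted p = 8.77e-06 by limma). Some library outside kidney was at or above the lower kidney value of phgdh.S. The serine dehydratase copies sds.L and sds.S, by contrast with sdsl.S, were at a mean of 0 and 0.165 TPM in kidney and did not pass the threshold.

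In the lysine and tryptophan list, to which aadat is closest, 6 of 13 models were higher. They include haao.L, of the kynurenine pathway, at 181 and 104 TPM, and the lysine enzyme aldh7a1.S at 56.1 and 54.1 TPM. For aldh7a1.S some library outside kidney was at or above the lower kidney value. The methionine and cysteine list had 11 of 22 higher, led by the betaine-homocysteine methyltransferase bhmt.L at 2173 and 1835 TPM (difference 6.98, limma adjusted p = 2.14e-11). In the peroxisome list 21 of 34 were higher, among them the purine breakdown enzymes allc.L, at 851 and 1083 TPM, and uox.L, at 121 and 114 TPM.

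Of the phenylalanine, tyrosine and histidine list, 6 of 11 were higher in kidney, with the histidine breakdown enzymes ftcd.L at 490 and 654 TPM and amdhd1.L at 145 and 69.3 TPM. The only model of any list that was lower was tat.L, the tyrosine aminotransferase, listed at 0 in both kidneys (difference -1.46, limma adjusted p = 0.0362), a call lost at a pseudocount of 5 TPM (limma adjusted p = 0.186), without the expression minimum (0.0565) and without kidney replicate 1 (0.25) or 2 (0.208). All 5 models of the pyrimidine and beta-alanine list were higher, as were 10 of 28 of the urea cycle, proline and arginine list, such as gamt.S at 149 and 226 TPM and glud1.1 at 353 and 395 TPM. In the branched chain list 7 of 20 were higher, among them aldh6a1.S, at 65.4 and 102 TPM, whose call was lost after scaling by the median of ratios (adjusted p = 0.0955).

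In liver, 38 of the 158 pathway models were higher than the mean of the other 13 organs and 25 lower, where 4.23% of all models were called higher and 19.6% lower. The median difference was -0.26 over the lists and -0.67 over all models. Higher calls were 60.3% of the pathway calls, against 17.7% over all models. After scaling by the median of ratios these shares were 90.6% (58 higher, 6 lower) against 52.1%, and after quantile normalization 88.9% (56 higher, 7 lower) against 55.8%. The number lower was 7 without liver replicate 1 and 12 without liver replicate 2.

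Of the urea cycle, proline and arginine list 8 of 28 models were higher in liver and 8 lower. The carbamoyl phosphate synthetase cps1.L, which starts the cycle, was at 266 and 238 TPM in liver and listed at 0 in both kidneys (difference 7.69, SE 0.27, limma adjusted p = 5.32e-13). Its activating enzyme nags.S was at 71.2 and 184 TPM. Among the lower models were gamt.L, of creatine synthesis, at 0.15 and 0.11 TPM (difference -3.07) and ddah2.L, which breaks down methylated arginine, at 3.55 and 3.08 TPM (difference -2.29). Of the phenylalanine, tyrosine and histidine list 9 of 11 models were higher and none lower. They include tat.L at 269 and 32.5 TPM and the phenylalanine hydroxylase pah.S at 86.8 and 23.7 TPM. For tat.L some library outside liver was at or above the lower liver value. The tryptophan dioxygenase tdo2.L was at 131 and 75.7 TPM (difference 6.53, adjusted p = 1.32e-15).

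In the glyoxylate and hydroxyproline list 1 of 11 models (9.09%) was higher in liver and 2 (18.2%) were lower, where all models gave 4.23% and 19.6%. The higher one was prodh2.1, whose product starts hydroxyproline breakdown in mammals. It was at 33.3 and 210 TPM in liver and 42.1 and 108 TPM in kidney, and these organs overlapped. The transaminases got1.S, at 39.3 and 36.7 TPM, and got2.L, at 16.2 and 32.0 TPM, were lower in liver, calls lost after scaling by the median of ratios (limma adjusted p = 0.315 and 0.153). The call of got1.S was also lost without liver replicate 1 (adjusted p = 0.073) or 2 (0.0888). In the branched chain list 6 of 20 models (30%) were lower, against 19.6% of all models, and none higher. Among them were hibch.L, at 5.63 and 1.11 TPM, and mccc1.L, at 6.46 and 3.16 TPM. Both calls were lost after scaling by the median of ratios (limma adjusted p = 0.119 and 0.13). They were also lost after quantile normalization (limma adjusted p = 0.164 and 0.145).

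Set directly against each other, liver was lower than kidney for 86 of the 158 pathway models and higher for 15, where 27.5% and 1.89% of all models were called. The median difference was -1.60 over the lists and -0.997 over all models. Higher calls made up 14.9% of the pathway calls, against 6.43% over all models. The shares were 44.2% (19 higher, 24 lower) against 39% after scaling by the median of ratios. After quantile normalization the pathway share, 33.3% (16 higher, 32 lower), lay below that of all models, 45.2%. The number lower was 49 without either kidney replicate 1 or kidney replicate 2, and 52 without liver replicate 1.

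By list, 7 of 11 glyoxylate and hydroxyproline models were lower in liver than in kidney and none higher. So were 17 of 20 branched chain, 19 of 34 peroxisome and 5 of 5 pyrimidine and beta-alanine models, against 27.5% of all models. These counts by list are for TPM as deposited only. The branched chain calls of mccc1.L and mccc1.S were lost after scaling by the median of ratios (limma adjusted p = 0.185 and 0.275). They were also lost after quantile normalization (limma adjusted p = 0.0875 and 0.098). The mitochondrial dicarboxylate carrier slc25a10.L was at 9.71 and 6.44 TPM in liver and 168 and 310.1 TPM in kidney (difference -4.68, limma adjusted p = 3.9e-06). Both directions met in the urea cycle, proline and arginine list, with 7 models higher in liver and 11 lower. Its extremes were cps1.L (difference 7.98) and the creatine synthesis enzyme gamt.S, at 0.15 and 0.32 TPM in liver (difference -7.23, adjusted p = 9.27e-10). These 3 comparisons share libraries and are not independent.

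For the most abundant copy of each symbol, with both grhpr copies, the models of most similar pattern over the 28 libraries were found by Pearson's r of log2(TPM + 1), a description over libraries that share frogs and organs. For agxt.L these were fmo5.S (r = 0.973), slc27a2-like.S (0.965) and allc.L (0.95), all highest in kidney with liver at 41.5, 142 and 176 TPM. For aadat.L they were hoxd9.L (0.979), tmigd1.S (0.973) and hoxd8.L (0.971), each below 0.1 TPM in liver. The neighbours of hao1.L were MGC89221.L (0.993), darmin.S (0.992) and MGC89221.S (0.992), all highest in liver.

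For grhpr.2.L the neighbours were zp4.S, tuba4.L (both 0.996) and cldn6.1.L (0.993), highest in ovary with 68.5, 38.5 and 48.8 TPM in kidney. The likeness was looser for the others. The r of hoga1.L was 0.86 with ftcd.L, which had 286 TPM in ovary, that of grhpr.1.L 0.881 with gm2a.L, and that of sdsl.S 0.867 with ldlrad3.L. The model gm2a.L also came among the 3 nearest to sdsl.S (0.82).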

How the data were processed

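Per the labels' protocols, RNA from minced organs was taken up in TRIzol, cleaned on columns and made into unstranded poly-A libraries for Illumina sequencing. RSEM 1.2.19 and BWA 0.7.10 are listed in the submitters' processing notes, and the label's file description names a set of cDNA models as the reference. The authors deposited 1 table of TPM values, each library summing to 1000000 within rounding; the depth is unknown, so no count model was used. All columns were mapped to samples by name.

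Models with at least 1 TPM in at least 2 libraries (33317 of 45831) were fitted on log2(TPM + 1) with limma 3.58.1 in R 4.3.3, 1 mean per organ, trended variances and 14 residual degrees of freedom. A call needed a Benjamini-Hochberg adjusted p under 0.05 over all models and a log2 difference of at least 1. The frog comparison used organ as a block, so organs of the same female stood as its replicates. Homeolog pairs were described without a test; one planned for sdsl is not reported, since sdsl.L failed the minimum. Steps were tested on simulated data with independent noise. These lack any correlation between organs of the same frog, so they do not show how the fits behave under it. RefSeq names are from assembly v10.1, a different build, so no coordinates are given.

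The members and lists were chosen with earlier results of these data known. Named pathway genes are up to 2 called models per list and direction with the largest difference, at a mean of at least 5 TPM on the higher side; sds, outside this rule, was named beside sdsl after its values were seen. The nearest patterns are 3 for the most abundant copy of each symbol (both grhpr copies); agxt.S and aadat.S were not searched. Replicate numbers stand for the same female in 13 organs, per the series' design. Ueno minus Taira differences correlated between organs over the models (median r 0.425 over 78 pairs, from -0.0138 to 0.723). This r includes any gap that the organs share. Alternatives were other pseudocounts, other minimums, median-of-ratios and quantile scaling, a replicate block, gonads left out and each library left out.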

Additional observations from a re-analysis of the deposited data

Results flagged for a closer look

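The balance of the homeologs of aadat ran in opposite directions in different organs. The mean log2 ratio of L to S was 2.04 in kidney, where both libraries had more L, and -5.37 in muscle, where both had more S. For agxt the mean ratio was 10.83 in kidney and -2.49 in testis, again with both libraries of each organ on the same side. In testis agxt.L was at 0.44 and 0.06 TPM and agxt.S at 7.15 and 4.94 TPM. These differences between organs were not tested, since the L copies had been singled out for their kidney level.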

How the results depend on the processing

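Of the counts of pathway models, that higher in kidney was 83 and became 53 after scaling by the median of ratios. That lower in kidney was 1, and it was 2 at a pseudocount of 0.1, with the replicate block and after scaling by the median of ratios, 4 after quantile normalization, 3 with the gonads left out, and 0 at a pseudocount of 5 or with no filter. In liver, 58 were higher after scaling by the median of ratios, and 10 were lower at a pseudocount of 5, 6 after scaling and 7 after quantile normalization. Of liver against kidney, the number lower was 24 and 32 under these scalings. The cause was not tested. The replicate block gave 95 higher and 2 lower in kidney, 42 and 33 in liver, and 16 and 95 for liver against kidney; it changed no other call of a named result.

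Leaving out each library in turn gave 59 to 91 higher and 0 to 2 lower in kidney, 31 to 43 higher and 7 to 29 lower in liver, and 11 to 15 higher and 49 to 92 lower for liver against kidney. Between the frogs limma called 0 copies in each of these fits. The lone library left in an organ was assumed to vary like the others. Between the frogs, scaling by the median of ratios called 1 copy, sdsl.S (1.13). The sign of agxt.L turned at a pseudocount of 0.1 (-0.16, limma adjusted p = 0.763). That of grhpr.2.L turned in 10 of the fits that leave out a library (-0.06 to -0.02). Over all fits that leave out a library the grhpr.2.L difference ran from -0.06 to 0.22. Leaving out models highest in ovary was chosen after seeing the data. With 2 animals per organ and no read depth, differences within an organ could not be given an error of counting.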
